A study of Mus musculus with 9 samples.

Results

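The FGF receptor signalling and feedback genes comprised 10 genes, chosen by name from literature that links FGF receptor signalling to loss of *Npas3*, and all 10 were found by symbol among the 55401 genes counted. They were the receptors *Fgfr1* and *Fgfr2*, the feedback inhibitors *Spry1*, *Spry2*, *Spry4*, *Spred1* and *Dusp6*, and the target transcription factors *Etv1*, *Etv4* and *Etv5*. Bulk forebrain RNA was sequenced from 9 female embryos at E16 to E17, of which 5 were WT and 4 heterozygous (HET). HET embryos carried a constitutive deletion of 1 copy of *Npas3*, which encodes a bHLH-PAS transcription factor, in every tissue and on a C57BL/6J background. WT embryos were their littermates, from crosses of HET mice with each other or with C57BL/6J. The genotypes are labelled Npas+/- and Npas+/+, without the number of the gene, and neither the litter nor the exact age of an embryo is given. The labels also name astrocytes as the cell type, but the tissue was whole forebrain. The astrocyte genes *S100b*, at 0.0883 to 0.326 CPM (read counts scaled to the size of the library), and *Aqp4*, at 0.163 to 2.02 CPM, were near 0, and *Gfap* was at 4.23 to 12.5 CPM. The astrocyte markers that radial glia also express were higher, with *Slc1a2* at 82.7 to 184.8 CPM and *Gja1* at 75.5 to 101.6 CPM, and the 7 markers of that list summed to 323 to 458 CPM in WT and 319 to 419 CPM in HET embryos. The neuronal gene *Tubb3* was at 1575 to 1885 CPM. In such bulk samples, fewer cells of a type and less RNA per cell cannot be told apart.

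Secreted FGF ligands bind FGF receptors together with heparan sulphate, and the receptors signal through the adaptor FRS2, RAS and the kinase ERK. ERK relieves repression by Capicua (CIC), and the ETV factors, the Sprouty genes, *Spred1* and *Dusp6* are then transcribed. Sprouty and Spred proteins act back on the cascade at or above RAF, DUSP6 removes the activating phosphates of ERK, and the RNA of these genes is therefore widely used as a readout of FGF and ERK activity. In the embryonic forebrain, FGF signalling patterns the telencephalon and maintains radial glia.

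Sequence upstream of the start site is shown for *Dusp6* and *Spry2*, the matched members that hold a CIC octamer, and for *Etv5*, whose groups did not overlap. The *Etv5* stretch is only the distal part of its window, and the 149 bases next to the RefSeq start are left out because other transcript models place them inside the gene. Sequences are from RefSeq on GRCm38.p6, in which 7 of the 10 members matched, and *Fgfr1*, *Etv4* and *Spry4* had no entry. They are written 5′ to 3′ on the strand of the gene. The longer runs of capitals mark a CIC octamer and the shorter runs mark an E-box, a motif bound by bHLH factors.
Dusp6, chr10:99262981-99263230, plus strand: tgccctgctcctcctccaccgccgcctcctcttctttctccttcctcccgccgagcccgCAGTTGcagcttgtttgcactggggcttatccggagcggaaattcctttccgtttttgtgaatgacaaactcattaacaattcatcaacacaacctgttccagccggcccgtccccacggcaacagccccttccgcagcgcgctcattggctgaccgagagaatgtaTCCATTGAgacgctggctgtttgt
Spry2, chr14:105896820-105897069, minus strand: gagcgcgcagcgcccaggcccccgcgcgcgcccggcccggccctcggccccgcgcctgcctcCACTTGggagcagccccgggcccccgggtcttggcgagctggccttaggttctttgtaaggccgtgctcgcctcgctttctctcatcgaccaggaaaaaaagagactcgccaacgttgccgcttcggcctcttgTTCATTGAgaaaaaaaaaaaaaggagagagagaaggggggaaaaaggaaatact
Etv5, chr16:22439720-22439820, minus strand: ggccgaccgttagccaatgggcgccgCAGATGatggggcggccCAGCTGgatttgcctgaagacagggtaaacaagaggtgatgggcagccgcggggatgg
The CIC octamers (TGAATGAA, TGAATGGA, TCAATGAA or TCAATGGA, on either strand) began 24 bases before the start of *Dusp6* and 54 bases before that of *Spry2*. Over all 32851 RefSeq windows of 250 bases upstream, 3.19% held such an octamer. The E-box (CANNTG) was present upstream of 6 of the 7 matched members, where a member counted if any of its windows held the motif. *Spred1* was the matched member without an E-box, and *Etv1* and *Etv5* each also had a window with 0. Of all windows, 66.2% held an E-box, and the share among the 9 windows of the members was near this. The count of members cannot be set against that share, because some members had more than a single window. The ETS core CCGGAA was in none of the 9 windows of the 7 members and in 3952 of all windows. The motifs do not overlap in the sequences shown, and a match describes only the letters in the window.

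Libraries held 42640218 to 62830060 counts (median 45845845). *Npas3* (ENSMUSG00000021010, chromosome 12, 53248677 to 54072175, plus strand) ranged from 29.7 to 40.8 CPM in WT embryos and from 27.8 to 34.1 CPM in HET embryos, so that the groups overlapped. HET was lower by a log2 fold change of −0.30 (SE 0.10), with an adjusted p of 0.877 from the quasi-likelihood test of edgeR with Benjamini-Hochberg adjustment. The part of the gene that the deletion removes is not given in the sources used here. RNA of the choroid plexus was unequal. *Ttr*, the transthyretin gene and a marker of that tissue, reached 467 to 2631 CPM in 1 HET embryo (24) and 3 WT embryos (15, 16, 41), and at 0.770 to 11.7 CPM in the other 5 embryos. The summed level of 8 choroid plexus markers was 26.3 to 2964 CPM in WT and 36.2 to 549 CPM in HET embryos, and all 8 had a negative log2 fold change. Member values were therefore also obtained with a choroid plexus score as a covariate and in the 5 embryos (2 WT and 3 HET) in which *Ttr* was under 100 CPM.

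Differences between HET and WT forebrain were small for the FGF receptor and feedback genes. The RNA of *Etv5* and *Spry4* was higher in HET embryos by 1.18-fold and 1.38-fold, neither of which passed adjustment over all genes, and the RNA of *Fgfr1* and *Fgfr2* showed no difference larger than the spread between embryos. All 10 members passed the filter on low counts. In edgeR, 0 of the 10 had an adjusted p under 0.05, against 25 of the 17818 genes tested (0.140%). DESeq2, in which 0.483% of genes were called, and limma-voom also called 0 members. At an unadjusted p under 0.05, 2 members (*Spry4* and *Etv5*) differed in edgeR, both with HET higher, against a background of 5.42% of genes in either direction and 2.32% with HET higher. DESeq2 gave the same 2 members an unadjusted p under 0.05 (5.85% of all genes, 2.59% with HET higher). When the choroid plexus score was added to the fit, 0 members were called (0.129% of all genes), and 4 had an unadjusted p under 0.05 (5.17%), namely *Etv4*, *Etv5* and *Spry4* with HET higher (2.94%) and *Dusp6* with HET lower. In the embryos with low *Ttr* 0 were called (0.0839% of all genes), and *Etv4*, *Etv5* and *Spry4* had an unadjusted p under 0.05 (3.70%, and 2.05% with HET higher). In these 5 embryos the groups did not overlap for 4 members, against 17.4% of all genes, with *Etv4*, *Etv5* and *Spry4* higher in HET (8.42%) and *Dusp6* lower, at 46.8 CPM in WT and 39.9 CPM in HET. The fold change was positive for 7 members and negative for 3, and it was positive for 48.5% of all genes tested. The median log2 fold change of the members was 0.11, and that of all genes tested was −0.0046. Without regard to sign, the median was 0.14 for the members and 0.091 for all genes tested.

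**Figure D1:**
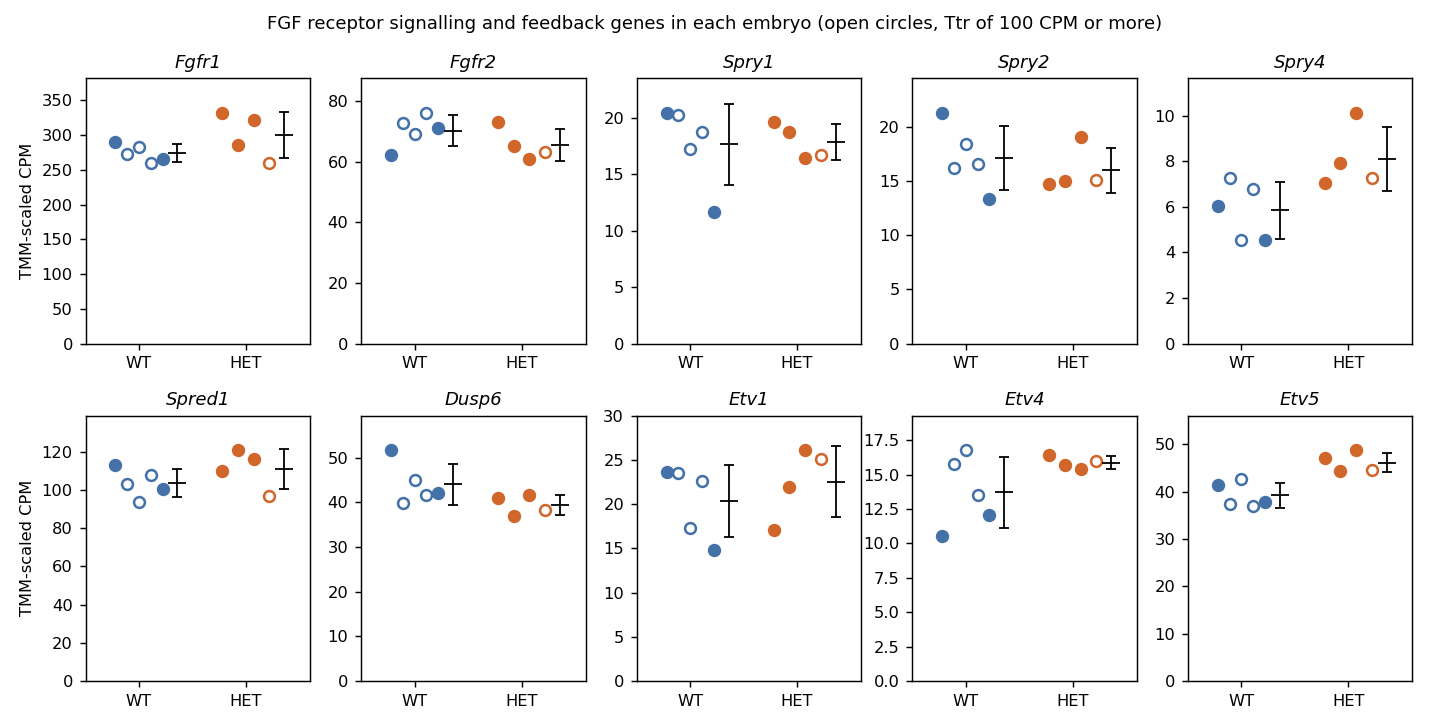
Levels of the 10 members in each embryo, in CPM on axes that differ between genes, with WT and HET embryos as points and the group means as bars. The HET embryos of Etv5 sit at 44.3 to 48.7 CPM, all above the WT embryos at 36.9 to 42.6 CPM, while the groups overlap for the other 9 genes.

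*Fgfr1* (ENSMUSG00000031565, chromosome 8, 25513654 to 25575718, plus strand) encodes an FGF receptor of neural progenitors. It was at 290, 273, 283, 259 and 266 CPM in WT embryos 5, 15, 16, 41 and 43, and at 332, 285, 322 and 260 CPM in HET embryos 5, 6, 7 and 24. HET embryos 5 and 7 were above every WT embryo, but HET embryo 24 was among the lowest, so the groups overlapped. WT embryos averaged 274 ± 12.4 CPM (SD, n = 5) and HET embryos 299.6 ± 33.3 CPM (SD, n = 4). The log2 fold change was 0.13 (SE 0.08, 95% interval −0.04 to 0.30), with an adjusted p of 0.911 in edgeR. It was 0.074 without HET embryo 5, 0.19 without HET embryo 24, where the unadjusted p was under 0.05, and 0.09 to 0.15 with any other embryo left out. *Fgfr1* had 12045 to 16457 counts per embryo, the most reads of the members.

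*Fgfr2* (ENSMUSG00000030849, chromosome 7, 130162451 to 133123350, minus strand), a related receptor with its own ligand preferences, was at 62.2, 72.7, 69.2, 76.1 and 71.2 CPM in WT embryos 5, 15, 16, 41 and 43. It was at 73.2, 65.3, 61.1 and 63.2 CPM in HET embryos 5, 6, 7 and 24. WT embryo 5 was among the low values and HET embryo 5 among the high ones. The log2 fold change was −0.10 (SE 0.07, 95% interval −0.26 to 0.07; adjusted p = 0.911 in edgeR), and it was −0.0040 in the embryos with low *Ttr*. The count of *Fgfr2* as a percentage of that of *Fgfr1* does not depend on library scaling. It was 21.5, 26.6, 24.4, 29.3 and 26.8% in WT embryos 5, 15, 16, 41 and 43, and 22.1, 22.9, 19.0 and 24.3% in HET embryos 5, 6, 7 and 24. The ratio was lowest in HET embryo 7 and highest in WT embryo 41, and the groups overlapped only through WT embryo 5, since WT embryo 16 lay just above HET embryo 24. The log2 ratio averaged −1.97 ± 0.17 (SD, n = 5) for WT embryos and −2.19 ± 0.15 (SD, n = 4) for HET embryos, and the difference was −0.22 (p = 0.0952, exact two-sided permutation test, for which 0.0159 is the smallest possible p). Without WT embryo 5 the difference was −0.28 with p = 0.0286 (exact permutation test), the smallest p that 4 against 4 embryos allow. Leaving out the embryo through which the groups overlapped fixes that p, so no conclusion is drawn from it. In the embryos with low *Ttr* the difference was −0.18 (p = 0.6, exact permutation test, for which 0.2 is the smallest possible p).

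Among the feedback inhibitors, *Spry4* had the largest difference. *Spry4* (ENSMUSG00000024427, chromosome 18, 38586247 to 38601415, minus strand) encodes a Sprouty protein, an inhibitor of signalling from receptor tyrosine kinases to ERK. It was at 6.06, 7.28, 4.55, 6.79 and 4.57 CPM in WT embryos 5, 15, 16, 41 and 43, and at 7.06, 7.94, 10.1 and 7.28 CPM in HET embryos 5, 6, 7 and 24. The groups met at about 7 CPM, where WT embryo 15 lay above HET embryo 5. The means were 5.85 ± 1.26 CPM (SD, n = 5) and 8.10 ± 1.402 CPM (SD, n = 4), and *Spry4* had 207 to 490 counts per embryo, the fewest of the members. On the log2 scale HET was higher by 0.47 (SE 0.17, 95% interval 0.09 to 0.85), with an adjusted p of 0.908 in edgeR. It was 0.66 in the embryos with low *Ttr* and 0.55 with the choroid plexus score. Without HET embryo 7, the highest, it was 0.35 and the unadjusted p was no longer under 0.05.

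*Spry1* and *Spry2* encode the other Sprouty proteins of the list. *Spry1* (ENSMUSG00000037211, chromosome 3, 37639947 to 37644598, plus strand) was at 20.4, 20.3, 17.2, 18.7 and 11.7 CPM in WT embryos 5, 15, 16, 41 and 43, and at 19.7, 18.7, 16.4 and 16.7 CPM in HET embryos 5, 6, 7 and 24. Every HET embryo lay inside the range of the WT embryos, and WT embryo 43 stood lowest. Its log2 fold change was 0.02 (SE 0.15, 95% interval −0.32 to 0.35; adjusted p = 0.990 in edgeR), and without WT embryo 43 its sign turned, to −0.095. The antisense gene *Gm42922* overlaps 24.4% of the exonic bases of *Spry1*, so its counts are uncertain where the counting ignored strand, although *Gm42922* itself was given only 9 to 17 counts per embryo. *Spry2* (ENSMUSG00000022114, chromosome 14, 105891947 to 105896819, minus strand) was at 21.3, 16.2, 18.4, 16.6 and 13.3 CPM in WT embryos 5, 15, 16, 41 and 43, and at 14.7, 15.02, 19.1 and 15.1 CPM in HET embryos 5, 6, 7 and 24. HET embryo 7 stood above the other HET embryos, and all HET values lay inside the WT range. The estimate for *Spry2* was −0.10 on the log2 scale (SE 0.14, 95% interval −0.40 to 0.20; adjusted p = 0.935 in edgeR). It lay between −0.013 without WT embryo 5 and −0.20 without HET embryo 7.

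*Spred1* (ENSMUSG00000027351, chromosome 2, 117121374 to 117182279, plus strand) encodes a Sprouty-related protein that brings neurofibromin to the membrane to switch off RAS. It was at 113, 103, 93.7, 108 and 101 CPM in WT embryos 5, 15, 16, 41 and 43, and at 110, 121, 116 and 96.7 CPM in HET embryos 5, 6, 7 and 24. HET embryos 6 and 7 were above every WT embryo, and HET embryo 24 was below all WT embryos but 16. For *Spred1* the log2 fold change was 0.10 (SE 0.08, 95% interval −0.08 to 0.27; adjusted p = 0.911 in edgeR), and it moved between 0.057 without HET embryo 6 and 0.16 without HET embryo 24. *Dusp6* (ENSMUSG00000019960, chromosome 10, 99263231 to 99267489, plus strand), the gene of the ERK phosphatase shown above with a CIC octamer near its start, was at 51.6, 39.8, 45.1, 41.6 and 42.0 CPM in WT embryos 5, 15, 16, 41 and 43. It was at 41.01, 36.9, 41.7 and 38.2 CPM in HET embryos 5, 6, 7 and 24. The HET values lay at the low end of the WT range or below it, and WT embryo 5 was the highest. The log2 fold change was −0.16 (SE 0.08, 95% interval −0.34 to 0.02), with an adjusted p of 0.911 in edgeR. Without WT embryo 5 it was −0.093. With the choroid plexus score it was −0.21 (adjusted p = 0.917 in edgeR). The estimates for *Dusp6* and *Spry4*, both feedback genes, were thus of opposite sign.

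The 3 ETV genes encode the PEA3 group of ETS transcription factors, and each had a positive fold change. *Etv5* (ENSMUSG00000013089, chromosome 16, 22381309 to 22439719, minus strand) was at 41.3, 37.4, 42.6, 36.9 and 37.7 CPM in WT embryos 5, 15, 16, 41 and 43, and at 47.0, 44.3, 48.7 and 44.5 CPM in HET embryos 5, 6, 7 and 24. Every HET embryo was above every WT embryo, which held for no other member. Of all genes tested, 1.85% had groups that did not overlap, and 0.786% with HET higher. The means were 39.2 ± 2.58 CPM (SD, n = 5) and 46.1 ± 2.11 CPM (SD, n = 4). *Etv5* was higher in HET by 0.24 on the log2 scale (SE 0.07, 95% interval 0.09 to 0.38), with an adjusted p of 0.576 in edgeR, the lowest of the members. It was 0.24 in the embryos with low *Ttr* and 0.22 with the choroid plexus score.

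*Etv4* (ENSMUSG00000017724, chromosome 11, 101769742 to 101785371, minus strand) was at 10.5, 15.8, 16.8, 13.6 and 12.03 CPM in WT embryos 5, 15, 16, 41 and 43, and at 16.5, 15.7, 15.4 and 16.0 CPM in HET embryos 5, 6, 7 and 24. The HET embryos lay close together at the upper end of the WT range, and the WT embryos with high *Ttr* were the 3 highest of their group. The log2 fold change was 0.21 (SE 0.13, 95% interval −0.08 to 0.49; adjusted p = 0.911 in edgeR). In the embryos with low *Ttr* it was 0.49 (adjusted p = 0.999 in edgeR), with 11.3 CPM in WT and 15.8 CPM in HET. With the choroid plexus score it was 0.37 (adjusted p = 0.716 in edgeR). *Etv1* (ENSMUSG00000004151, chromosome 12, 38779380 to 38870484, plus strand), also known from projection neurons of the deep cortical layers, was at 23.6, 23.6, 17.4, 22.6 and 14.8 CPM in WT embryos 5, 15, 16, 41 and 43. It was at 17.1, 21.9, 26.1 and 25.2 CPM in HET embryos 5, 6, 7 and 24. HET embryos 7 and 24 were above the WT embryos, and HET embryo 5 was among the lowest. For *Etv1* it was 0.15 (SE 0.16, 95% interval −0.21 to 0.51; adjusted p = 0.927 in edgeR). Leaving out WT embryo 43 gave 0.059 and leaving out HET embryo 5 gave 0.26.

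**Figure D2:**
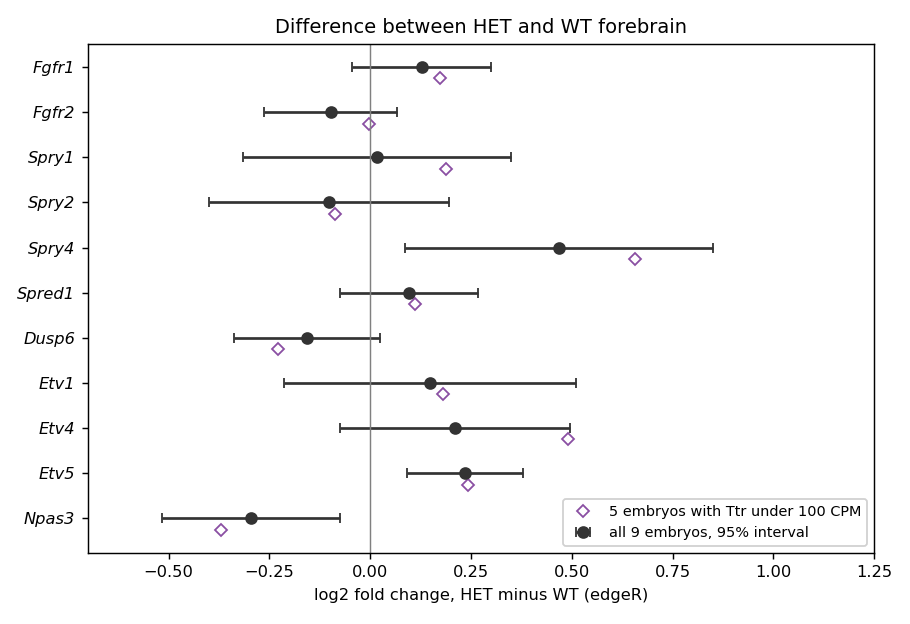
Log2 fold change of each member and of Npas3 in HET against WT from edgeR. It is shown over all 9 embryos with its 95% interval, and without an interval in the embryos with Ttr under 100 CPM. The intervals of Etv5 and Spry4 lie above 0 over all embryos, at 0.09 to 0.38 and 0.09 to 0.85, and those of Fgfr1 and Fgfr2 span 0.

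The members did not share 1 pattern over the embryos. WT embryo 5 was the highest of the 9 for *Spry1*, *Spry2* and *Dusp6* and the lowest for *Etv4*. WT embryo 43 was the lowest for *Spry1*, *Spry2* and *Etv1*. HET embryo 7 was the highest for *Spry4*, *Etv1* and *Etv5* and the lowest for *Fgfr2*. Other RNA differed between these embryos too, as seen for genes chosen here after their values were seen. *Nkx2-1*, a factor of the ventral forebrain, was highest in WT embryo 5, at 24.5 CPM, and HET embryo 7, at 20.5 CPM, and lowest in WT embryo 43, at 1.24 CPM. The ligand genes *Fgf8*, at 0.221 CPM, and *Fgf17*, at 1.46 CPM, were lowest in WT embryo 43. They reached 1.59 CPM for *Fgf8* in WT embryo 5 and 8.68 CPM for *Fgf17* in HET embryo 5. Not all ligands followed this, since *Fgf3* was lowest in HET embryo 5, at 0.693 CPM, and *Fgf15* in WT embryo 16, at 3.87 CPM. The summed level of the 9 ventral progenitor and interneuron markers was 253 to 553 CPM in WT and 204 to 482 CPM in HET embryos. That of the 12 radial glia markers was 3204 to 3852 CPM in WT and 2826 to 3543 CPM in HET embryos. Of the radial glia markers, *Fabp7* had an adjusted p of 0.0223 in edgeR, with a log2 fold change of −0.86, and it was the only called gene of the 12 marker lists. The part of these differences in the member values was not tested.

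**Figure D3:**
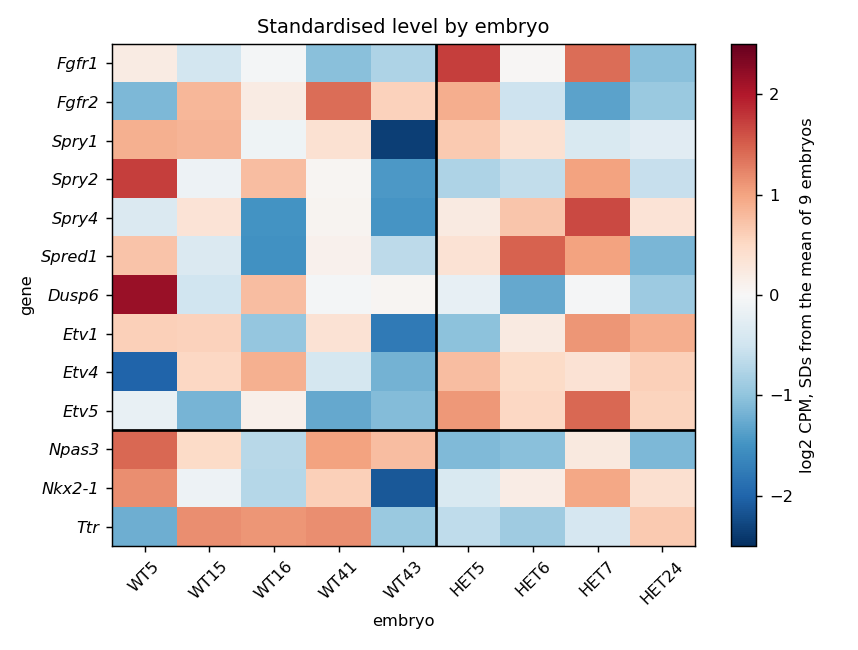
Log2 CPM of each member, and below the line of Npas3, Nkx2-1 and Ttr, in each embryo, as the distance from the mean of the 9 embryos in SD units. WT embryo 5 is high for Spry1, Spry2 and Dusp6, WT embryo 43 is low for Spry1, Spry2 and Etv1, and HET embryo 7 is high for Spry4, Etv1 and Etv5.

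Per kb of exon, *Fgfr1* had the highest level of the members, with a mean of 28.9 CPM per kb over the 9 embryos. *Spred1* followed at 15.8 CPM per kb, *Dusp6* at 13.4 and *Etv5* at 10.3. *Spry2* was at 7.97 CPM per kb, *Fgfr2* at 6.61, *Spry1* at 6.11, *Etv4* at 4.73, *Etv1* at 1.61 and *Spry4* at 1.44. In all 9 embryos *Fgfr1* lay above *Spred1*, *Dusp6* above *Etv5*, *Spry1* above *Etv4* and *Etv4* above *Etv1*. Neighbours with less separation were *Spry2* and *Fgfr2*, and *Fgfr2* and *Spry1*, which kept this order in 7 embryos, and *Etv1* and *Spry4*, which kept it in 6. Of the receptors outside the list, *Fgfr3* was at 19.3 CPM per kb, *Fgfrl1* at 4.44 and *Fgfr4* at 0.259. The secreted ligand with the highest mean was *Fgf15* at 5.52 CPM per kb, with a range over embryos of 1.27 to 13.3. Antisense exons overlap 25.7% of the exonic bases of *Fgf15* and 13.9% of those of *Fgfr3*, so these levels are uncertain where the counting ignored strand.

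**Figure D4:**
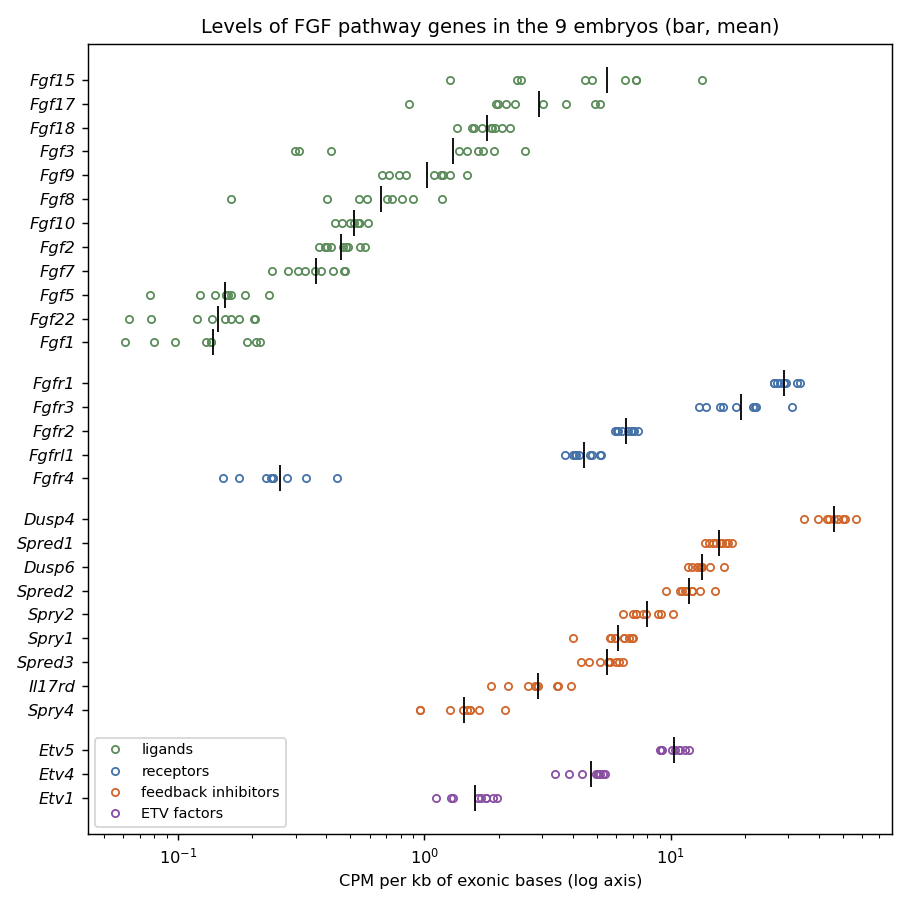
Levels of the members and of selected other pathway genes in each embryo, in CPM per kb of exon on a log axis, with a bar at the mean. Fgfr1 is the highest of the members at a mean of 28.9 CPM per kb, and Fgf15 spreads most widely of the ligands shown at the top, from 1.27 to 13.3.

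The rest of the pathway was described by 104 further genes in 7 lists, of which 103 were in the table, *Spry3* was not analysed here, and 95 passed the filter. Of these 95, 0 had an adjusted p under 0.05 in edgeR, and DESeq2 and limma-voom also called 0. An unadjusted p under 0.05 was found for 7, or 7.37%, with 3 higher and 4 lower in HET, near the 5.42% of all genes (2.32% with HET higher). The median log2 fold change of the 95 genes was 0.05, with 61 positive and 34 negative, and 48.5% of all genes tested were positive. All genes of an embryo share a library, so these signs are not independent of each other. The groups did not overlap for 2 of the 95 genes, near the 1.85% of all genes. Of 18 secreted ligands 12 were tested, with 9 positive fold changes and a median of 0.21. *Fgf1*, a ligand that binds every FGF receptor, was at 0.529, 0.708, 0.435, 0.741 and 0.331 CPM in WT embryos 5, 15, 16, 41 and 43, and at 1.04, 0.745, 1.18 and 1.13 CPM in HET embryos 5, 6, 7 and 24. The groups of *Fgf1* were apart by a narrow margin (0.786% of all genes did not overlap with HET higher), and it had only 15 to 59 counts per embryo. Its log2 fold change was 0.89 (SE 0.25; adjusted p = 0.610 in edgeR). *Fgf9*, a ligand made by neurons and glia, had a log2 fold change of 0.38 (SE 0.22; adjusted p = 0.911 in edgeR). All 4 intracellular FGF homologous factors, which bind sodium channels rather than FGF receptors, were tested, and the lowest p belonged to *Fgf14*, with a log2 fold change of 0.12 (adjusted p = 0.915 in edgeR), and *Fgf11*, with 0.05 (adjusted p = 0.943 in edgeR).

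Among the 5 other receptors and co-receptors the median log2 fold change was −0.17, and 2 had an unadjusted p under 0.05, both lower in HET. *Fgfr4*, a receptor at 26 to 65 counts per embryo, had a log2 fold change of −0.58 (adjusted p = 0.909 in edgeR). *Kl*, the co-receptor Klotho made in the choroid plexus, had −2.19 (adjusted p = 0.911 in edgeR), and 0.23 with the choroid plexus score. The 20 genes of heparan sulphate synthesis and editing had a median of 0.04 and 3 with an unadjusted p under 0.05. *Hs6st1*, a 6-O-sulphotransferase, was at 43.6 to 52.5 CPM in WT and 54.1 to 57.0 CPM in HET embryos, without overlap (0.786% of all genes with HET higher), with a log2 fold change of 0.16 (adjusted p = 0.908 in edgeR). The log2 fold change of *Hs6st1* was 0.14 with the choroid plexus score and 0.10 in the embryos with low *Ttr*, and in neither was its unadjusted p under 0.05. Antisense exons overlap 8.07% of its exonic bases. *Gpc3*, a glypican, had −1.42 (adjusted p = 0.908 in edgeR), but 0.33 in the embryos with low *Ttr*. *Sulf1*, a heparan sulphate 6-O-endosulphatase named after its values were seen, had −1.60 (adjusted p = 0.909 in edgeR), but 0.68 in the embryos with low *Ttr*. *Sulf1* was at 130 to 185 CPM in the 3 WT embryos with high *Ttr* and at 16.4 to 49.5 CPM in the other 6 embryos.

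The 23 adaptors and members of the RAS to ERK cascade had a median log2 fold change of 0.05 and none with an unadjusted p under 0.05 in edgeR. The lowest were those of *Hras* (0.13) and of the RAS activator *Sos1* (0.16), both with an adjusted p of 0.911 in edgeR. Of the other feedback and negative regulators, 21 were tested, the median was 0.13 and none had an unadjusted p under 0.05. Nearest to it were *Dusp9*, an ERK phosphatase at 8 to 20 counts per embryo (−0.55), and *Spred2*, the closest relative of *Spred1* (0.19), both with an adjusted p of 0.911 in edgeR. Of 12 other ERK-responsive genes 10 were tested, with 5 positive fold changes, 5 negative ones and a median of 0.01. *Phlda1*, whose counts are uncertain because antisense exons overlap 33.0% of its exonic bases, had a log2 fold change of 0.32 (adjusted p = 0.908 in edgeR), and *Ier3* had −0.36 (adjusted p = 0.911 in edgeR).

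**Figure D5:**
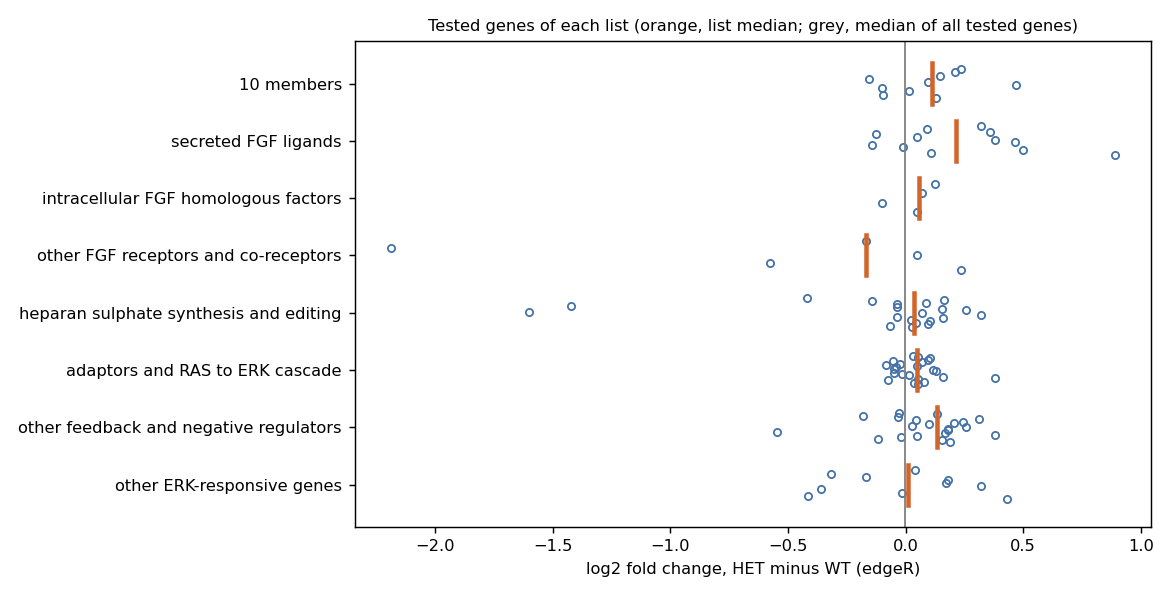
Log2 fold change of every tested gene in HET against WT, with 1 point for each gene, for the members together and for the 7 lists of other pathway genes. The list medians run from −0.17 for the other receptors and co-receptors to 0.21 for the secreted ligands, and none of the genes passed an adjusted p of 0.05.

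Over the 9 embryos, the genes whose log2 CPM followed the mean standardised profile of the members most closely were *Cyp26b1* (Pearson r = 0.94), which encodes an enzyme that degrades retinoic acid, *Dnajb4* (0.93), *Rasal3* (0.91), *Mei4* (0.91) and *Itm2c* (0.91). They were the highest of 17808 genes compared, and since all genes of an embryo share a library and a dissection, the values only describe these 9 embryos. *Rasal3*, at 0.442 to 0.703 CPM, and *Mei4*, at 0.0883 to 0.433 CPM, rest on few reads. The mean profile of the members was −1.01 in WT embryo 43 and next lowest in HET embryo 24, at −0.25, so WT embryo 43 weighs heavily in these correlations.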

How the data were processed

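RNA-seq of E16 to E17 forebrain was analysed in 5 WT and 4 HET embryos, grouped by the genotype in their labels. TruSeq libraries of poly(A) RNA were sequenced by the authors on a HiSeq machine. They took a single read of each pair, aligned it to GRCm38.p6 with STAR 2.7.9a and counted reads with featureCounts. The deposited values are raw counts of reads per gene, without normalization. The strand setting is not given in the sources used here, so named genes with 10% or more of their exonic bases under an antisense gene were treated as uncertain. No pair of embryos had identical counts. Nothing in the labels says which embryos shared a litter, so p-values measure the spread between these embryos.

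Counts were scaled by TMM and filtered with filterByExpr at a minimum count of 10, and HET was compared with WT by the quasi-likelihood test of edgeR 4.0.16 in R 4.3.3, without covariates, with Benjamini-Hochberg adjustment over all 17818 genes tested and a threshold of 0.05. Printed means are of TMM-scaled CPM, and SE and 95% intervals are of the fitted log2 fold change. The common biological coefficient of variation was 16.8%. The ratio of *Fgfr2* to *Fgfr1* counts, with 0.5 added, was compared by an exact permutation test in scipy 1.17.1 (Python 3.11.15). Alternatives were DESeq2 1.42.0, limma-voom (limma 3.58.1), other scaling and filters, a covariate for choroid plexus (log2 CPM averaged over 8 markers), embryos with *Ttr* under 100 CPM alone, and leaving out each embryo in turn. CPM per kb used exon lengths of GENCODE release M21 on GRCm38, which also gave coordinates.

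The members were chosen by name from literature, as given above, but both they and the gene lists were chosen with earlier results of these data known. Genes named were all members, in each pathway list the genes past the threshold and otherwise the 2 with the lowest p, the 5 genes closest to the mean profile of the members, *Npas3*, *Ttr* and marker genes past the threshold. Others are said to be named after their values were seen or describe levels. Depth and intervals cover the spread or counting error only, since PCR duplicates cannot be told apart.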

Additional observations from a re-analysis of the deposited data

Results flagged for a closer look

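In a few groups 1 embryo stood apart from the others, with a gap to its nearest neighbour that exceeded the critical value of Dixon's test. *Spry2* was at 19.1 CPM in HET embryo 7 and at 14.7 to 15.1 CPM in the other HET embryos. *Npas3* was at 34.1 CPM in the same embryo and at 27.8 to 28.2 CPM in the others. *Sos1* was at 73.8 CPM in WT embryo 16 and at 95.2 to 99.8 CPM in the other WT embryos. *Phlda1* was at 12.4 CPM in WT embryo 5 and at 8.46 to 8.83 CPM in the other WT embryos. Chance marks about 1 in 20 groups, or 2.6 of the 52 groups examined, against the 4 found.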

How the results depend on the processing

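No member and no other pathway gene was called under any of the 17 alternatives, and the lowest adjusted p of a member was 0.137, for *Etv5* with DESeq2. *Etv5* had an unadjusted p under 0.05 in all 17 and *Spry4* in 16, the exception being without HET embryo 7. Of 170 member values 167 kept their direction. The 3 that reversed were of *Spry1*, at −0.095 without WT embryo 43, −0.033 without HET embryo 5 and −0.0011 without HET embryo 6, and leaving out an embryo moved it between −0.095 and 0.074. *Fgf11* was at −0.0011 without HET embryo 24 and up to 0.091 with others left out, *Kl* at 0.23 with the choroid plexus score and *Gpc3* at 0.33 in the embryos with low *Ttr*. The cause of these reversals was not tested. The count of all genes called, 25 in edgeR, was 86 with DESeq2, 15 in the 5 embryos with low *Ttr* and 14 to 23 when an embryo was left out, with 16 without HET embryo 5, 14 without HET embryo 6 and 16 without HET embryo 7. The log2 ratio of *Fgfr2* to *Fgfr1* differed by −0.28 to −0.15 when an embryo was left out, and by −0.18 in the embryos with low *Ttr*. It passed the threshold only without WT embryo 5, the embryo through which the groups overlapped. No paired analysis was possible because neither litters nor pairs of embryos are given. Genes at few counts, such as *Fgf1* and *Dusp9*, are limited by depth.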
